A study of Mus musculus with 4 samples.

Results

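The interleukin-1 (IL-1) family was examined here through 8 of the 31053 genes counted in single cells of mouse bone: the agonists Il1a, Il1b and Il1f9, the receptor antagonist Il1rn, the signalling receptor Il1r1, the decoy receptor Il1r2, the shared accessory chain Il1rap and the IL-33 receptor Il1rl1. They were chosen by gene symbol, and all 8 were present in each of 4 libraries. Hindlimb unloading (HLU) was carried out by tail suspension of mice for 28 days, and control (Ctrl) mice were kept in the same housing without suspension. There were 2 Ctrl and 2 HLU libraries, all from wild-type mice, given as C57BL/6J in the methods of the study. The sources differ on age: 8 weeks in the methods and postnatal day 28 in the design text, and which one holds was not settled. Tibiae and femurs were flushed to remove marrow and digested with enzymes, and cells were captured with the 10x Genomics 3′ kit, version 3.1, which tags each captured transcript with a unique molecular identifier (UMI). Nothing in the labels gives litters or days, so p-values of HLU against Ctrl measure the spread between these 4 libraries. Those between cell groups measure the spread left once the library is taken out, over all groups of a fit.

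IL-1α and IL-1β bind IL1R1, which recruits IL1RAP and signals through MyD88 and NF-κB, while IL1RN occupies the receptor without signalling and IL1R2 binds the cytokine without a signalling domain. IL-1β is made as an inactive precursor that is cut by caspase-1 in the inflammasome, and IL-36γ, the product of Il1f9, signals through a related receptor that also uses IL1RAP. IL1RL1, also called ST2, is the receptor of IL-33 and is well known on mast cells, basophils and regulatory T cells. In bone, IL-1 is known as a cytokine that favours osteoclast formation and bone loss.

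Of the 8 genes, 4 lie on chromosome 2 and 3 on chromosome 1 of the mm10 build (GENCODE M21). On chromosome 2, Il1a (129299610 to 129309972, minus strand) and Il1b (129364570 to 129371139, minus strand) lie within 71.5 kb. Il1f9 (24186476 to 24193568, plus strand) and Il1rn (24336853 to 24351494, plus strand) lie within 165 kb of the same chromosome. On chromosome 1, Il1r2 (40074079 to 40125231), Il1r1 (40225080 to 40317257) and Il1rl1 (40429570 to 40465415) all lie on the plus strand within 391 kb. Il1rap lies on chromosome 16 (26581704 to 26730117, plus strand).

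The 250 bases before the transcription start are shown for the genes on which the results turn most. These are the agonist Il1b of mature neutrophils and monocytes, Il1f9 and Il1r2, whose means were highest in mature neutrophils, and both RefSeq starts of Il1rl1. The last gene was high in stromal cells and in basophils. The sequences are those of RefSeq on GRCm38.p6, written 5′ to 3′ on the strand of the gene, with matches to 5 motifs in capitals.
Il1b (chr2:129371140-129371389, minus strand): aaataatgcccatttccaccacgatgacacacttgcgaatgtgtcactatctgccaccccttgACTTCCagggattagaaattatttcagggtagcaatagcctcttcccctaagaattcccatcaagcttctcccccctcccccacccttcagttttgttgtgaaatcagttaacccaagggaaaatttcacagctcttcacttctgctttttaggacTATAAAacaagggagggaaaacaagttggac
Il1f9 (chr2:24186226-24186475, plus strand): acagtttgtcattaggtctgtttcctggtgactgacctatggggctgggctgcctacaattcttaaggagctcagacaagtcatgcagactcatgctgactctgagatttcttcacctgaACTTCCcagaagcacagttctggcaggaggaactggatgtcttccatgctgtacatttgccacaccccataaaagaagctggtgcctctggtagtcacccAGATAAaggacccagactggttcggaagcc
Il1r2 (chr1:40085843-40086092, plus strand): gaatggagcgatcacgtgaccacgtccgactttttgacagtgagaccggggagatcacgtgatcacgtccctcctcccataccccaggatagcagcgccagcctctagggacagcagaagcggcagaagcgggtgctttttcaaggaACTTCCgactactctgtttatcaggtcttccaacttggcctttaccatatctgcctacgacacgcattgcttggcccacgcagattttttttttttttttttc
Il1rl1, start 1 (chr1:40429320-40429569, plus strand): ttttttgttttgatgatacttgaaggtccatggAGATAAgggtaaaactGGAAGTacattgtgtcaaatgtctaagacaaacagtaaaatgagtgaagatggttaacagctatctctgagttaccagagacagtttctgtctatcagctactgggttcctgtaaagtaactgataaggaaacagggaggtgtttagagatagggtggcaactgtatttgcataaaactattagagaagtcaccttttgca
Il1rl1, start 2 (chr1:40439379-40439628, plus strand): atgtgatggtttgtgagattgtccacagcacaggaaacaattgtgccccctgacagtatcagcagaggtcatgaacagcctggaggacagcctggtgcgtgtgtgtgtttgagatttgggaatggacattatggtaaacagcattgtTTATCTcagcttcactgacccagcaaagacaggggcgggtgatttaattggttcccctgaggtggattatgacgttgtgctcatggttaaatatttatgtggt

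The motifs were searched on both strands and none of the matches shown overlaps another. TGANTCA (AP-1) is held by 6.75% of 32851 promoters of the same length, the motif of GATA factors, AGATAA, by 9.99%, that of ETS factors, GGAAGT, by 19.7%, the TATA box, here TATAAA, by 12.4% and the NF-κB motif by 7.25%. The Il1b promoter holds an ETS match starting 187 bases before the start and a TATA match 31 bases before it, and Il1a holds a TATA match at 32 and an AP-1 match at 12. Il1f9 holds an ETS match at 130 and a GATA match at 30, and Il1r2 an ETS match at 103. Start 1 of Il1rl1 holds a GATA match at 217 and an ETS match at 201, and start 2 a GATA match at 103. Among the starts not printed, Il1rn start 1 holds an AP-1 match at 141, Il1r1 start 1 an ETS match at 76 and Il1r1 start 2 an NF-κB match at 232, whereas Il1rap holds none of the 5. The counts are summed per gene, so they do not tell these starts apart, nor the different transcript forms of Il1rl1 and Il1rn. A match describes letters only.

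Barcodes with 1000 to 40000 UMIs and at most 10% mitochondrial UMIs were kept, which left 7340, 7635, 7757 and 9485 barcodes (32217 in all) with 45347595 to 87604282 UMIs per library. Strings of 4 values give both Ctrl libraries first (replicates 1 and 2) and then both HLU libraries (replicates 1 and 2). Cell groups were set by gates on marker genes, none of which is a member of the family, and the gates were drawn on the same barcodes that were then compared. Although marrow had been flushed, mature neutrophils (1442, 1797, 2891 and 1937 barcodes) were a main group in every library. Skeletal cells, that is barcodes passing the stromal, chondrocyte or osteoblast gate and no other type, made up 41.6%, 29.0%, 0.516% and 1.09% of barcodes, so HLU values of these cells rest on 40 and 103 barcodes. HLU replicate 2 stood apart from the other libraries: 26.8% of its barcodes passed gates of several types (4.07% to 11.7% elsewhere), 12.1% were monocytes (1.74% to 3.85% elsewhere) and only 267 deposited barcodes lay under 1000 UMIs (2143 to 2585 elsewhere). Pairs of libraries shared 13 to 21 of the kept barcode sequences. Log2 fold changes of HLU against Ctrl are therefore mostly also given without HLU replicate 2.

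Among groups with at least 10 barcodes in every library, Il1b was highest in monocytes, dendritic cells and mature neutrophils. In mature neutrophils its level was 820, 789, 675 and 3159 CPM (UMIs of the gene per 1e+06 UMIs of the same cells). In monocytes it was 1730, 1539, 1321 and 3709 CPM, and in dendritic cells (10, 24, 27 and 55 barcodes) 1766, 1044, 1055 and 2428 CPM. HLU replicate 2 was highest in all 3 groups, while HLU replicate 1 lay below both Ctrl libraries in mature neutrophils and monocytes. In the other groups except basophils and mast cells the first 3 libraries held 6.01 to 70.3 CPM of Il1b in progenitors, immature neutrophils, intermediate neutrophils, B cells, T and NK cells and skeletal cells, against 79.2 to 398 CPM in HLU replicate 2. Basophils and mast cells held 165, 120, 30.1 and 161 CPM, where HLU replicate 2 did not lie above the others.

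Smaller groups are not ranked. Resident macrophages, with 1, 3, 1 and 28 barcodes, held 0, 497, 0 and 7993 CPM of Il1b, and in HLU replicate 2 also 659 CPM of Il1a and 2496 CPM of Il1rn, each above the monocytes and mature neutrophils of that library. Megakaryocytes, with 17, 7, 16 and 26 barcodes, held 92.6, 1165, 121 and 1094 CPM of Il1b, from 11, 152, 40 and 522 UMIs.

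The share of mature neutrophils with at least 1 Il1b UMI was 52.0%, 53.0%, 48.6% and 89.6%. After thinning each barcode to 1000 UMIs it was 39.9%, 37.5%, 35.4% and 75.1%, and in monocytes 46.1%, 42.9%, 41.8% and 75.3%. In B cells, which served as a background because they are not a known source, the unthinned share was 4.17%, 10.3%, 5.88% and 20.5% and the thinned share 1.67%, 3.59%, 2.02% and 11.5%. Median UMI counts of mature neutrophils were 2092.5, 2658, 2489 and 3935, and of B cells 3397.5, 3701, 3451 and 2343. The background in B cells was thus also highest in HLU replicate 2. Mature neutrophils held 39.1%, 37.2%, 41.2% and 19.2% of all Il1b UMIs of their library, and monocytes 27.4%, 28.2%, 34.7% and 43.8%.

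**Figure D1:**
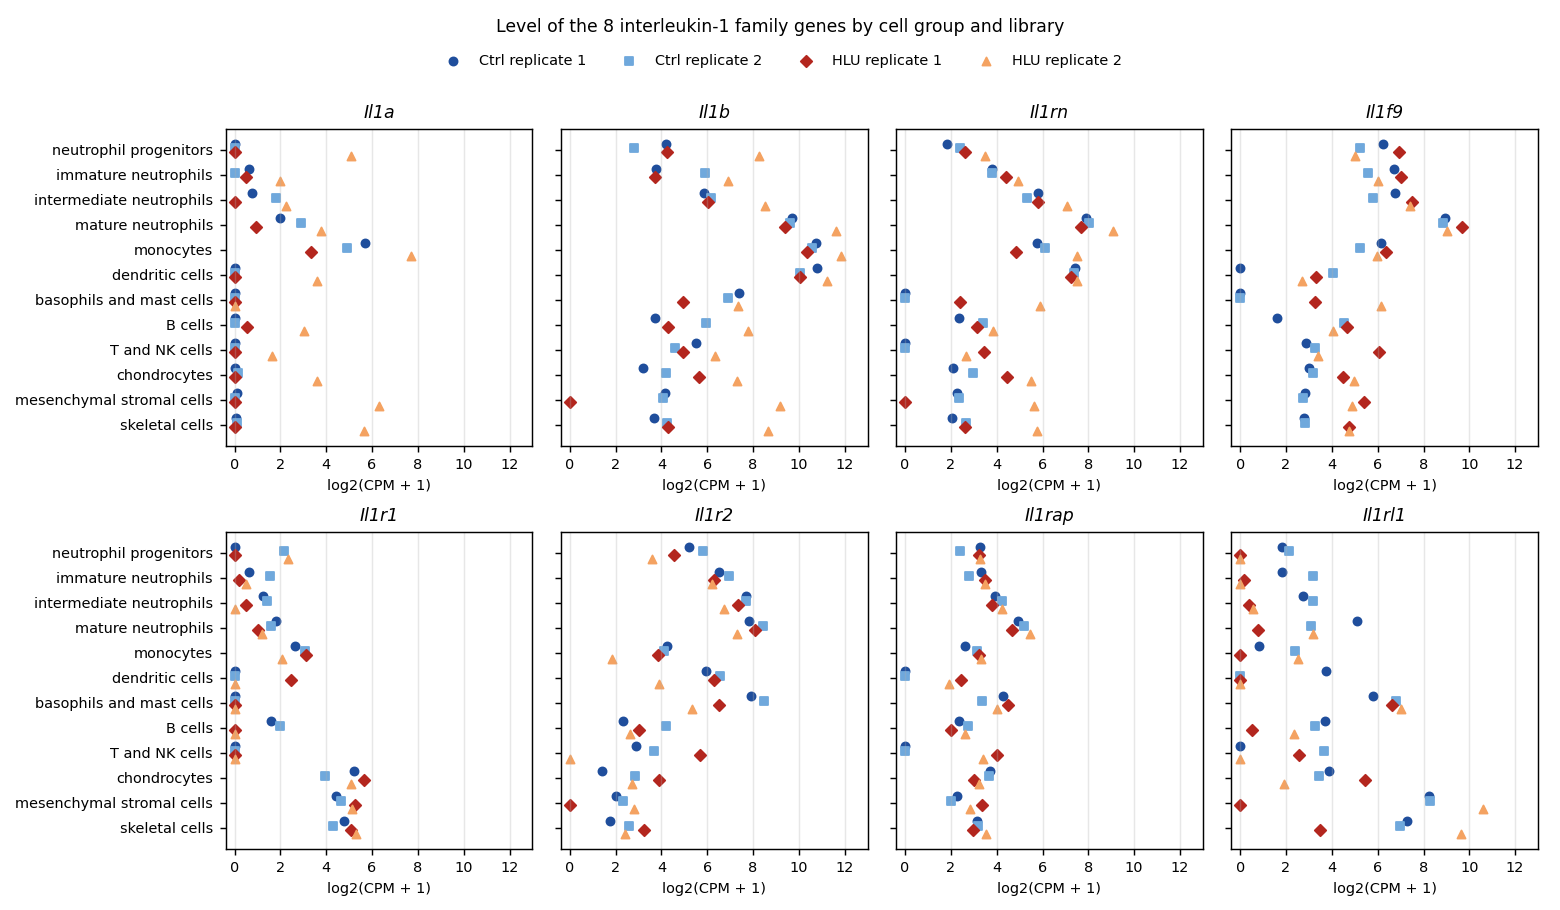
Levels of the 8 members (columns) in 12 cell groups (rows), as log2(CPM + 1), with 1 marker per library, 2 Ctrl and 2 HLU. Of these groups, Il1b was highest in monocytes, dendritic cells and mature neutrophils (675 to 3709 CPM). Il1f9 and Il1rn were highest in mature neutrophils, and Il1r1 in skeletal cells. Il1rl1 had its highest mean in mesenchymal stromal cells, but in HLU replicate 1 basophils and mast cells lay above the skeletal groups.

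Il1b was unevenly spread over mature neutrophils. Barcodes with at least 10 Il1b UMIs numbered 74, 105, 150 and 1007, and held 41.0%, 42.0%, 38.1% and 87.1% of the Il1b UMIs of mature neutrophils. In HLU replicate 2 such barcodes were most of the group, whereas in the other libraries they were a small part of it. Against barcodes without Il1b, Il1rn was 382 to 129, 606 to 162, 370 to 151 and 642 to 251 CPM, higher with Il1b in each library. Il1f9 (912 to 431, 824 to 329, 1258 to 707 and 602 to 289 CPM) and Il1r2 were higher in each library too. Il1a, Il1r1, Il1rap and Il1rl1 were not higher in each. Tnfaip3, which encodes the NF-κB feedback inhibitor A20, was among the genes richest in the barcodes with Il1b, at 236 against 32.1, 241 against 43.5, 245 against 37.4 and 163 against 30.9 CPM. These barcodes were picked on Il1b, so the comparison is a description.

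Neutrophil maturation was followed from progenitors through immature and intermediate cells (those passing both the immature and the mature gate) to mature cells. Along it, Il1b, Il1f9, Il1r2, Il1rap and the antagonist Il1rn were highest at the end in each library. Il1a was highest in mature cells in the first 3 libraries, but in HLU replicate 2 it was 32.4 CPM in progenitors (41 UMIs) against 12.8 CPM in mature cells. Mature and immature neutrophils were compared within libraries by edgeR's quasi-likelihood test on summed counts with Benjamini-Hochberg adjustment, and all 7 members that passed the filter on low counts were higher in mature cells, where 57.9% of all genes tested were called and 31.8% were higher and 26.1% lower. Il1b rose by a log2 fold change of 5.03 ± 0.50 (SE, n = 4 libraries, adjusted p = 1.29e-08) and Il1rn by 4.10 ± 0.27 (adjusted p = 3.91e-11). Il1f9 rose by 2.95 ± 0.34, Il1a by 2.88 ± 0.54, Il1rap by 2.02 ± 0.27 and Il1r2 by 1.52 ± 0.36. Il1rl1 rose by 2.47 ± 0.71 (adjusted p = 0.00483), a call that was lost without Ctrl replicate 1 (1.93, adjusted p = 0.0878). In that library 107 of its 134 Il1rl1 UMIs in mature neutrophils came from 1 barcode.

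Both steps along this path were also tested, but not the difference between them. From immature to intermediate cells 4 of 8 members rose, among 29.8% of all genes called and 15.8% higher: Il1rn by 1.93 ± 0.34, Il1b by 1.54 ± 0.51, Il1r2 by 0.98 ± 0.36 and Il1rap by 0.94 ± 0.25. From intermediate to mature cells 4 of 8 rose again, among 28.1% called and 15.4% higher: Il1b by 3.43 ± 0.53, Il1f9 by 2.21 ± 0.40, Il1rn by 2.16 ± 0.33 and Il1rap by 1.05 ± 0.24. Il1f9 did not pass the test at the first step (0.67 ± 0.40, adjusted p = 0.207) and Il1r2 not at the second (0.53 ± 0.36, adjusted p = 0.279). The first-step calls of Il1b and Il1r2 were lost in 4 and 5 of the alternatives tried. The intermediate group was defined after the data had been seen.

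**Figure D2:**
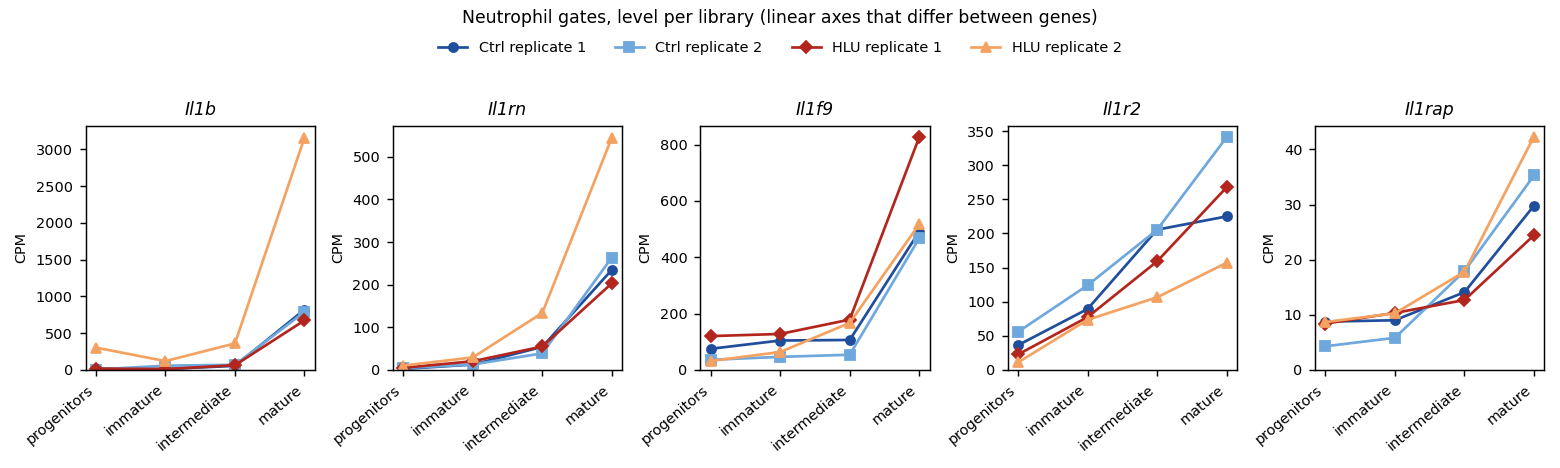
Levels of Il1b, Il1rn, Il1f9, Il1r2 and Il1rap in CPM (vertical axes, linear, starting at 0) over neutrophil progenitors, immature, intermediate and mature neutrophils, with 1 line per library. Il1b, Il1rn, Il1f9, Il1r2 and Il1rap were highest in mature cells in every library, and Il1b of HLU replicate 2 (3159 CPM) lay far above the others.

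Il1a, the agonist that is active without inflammasome cleavage, was highest in monocytes among the ranked groups, at 51.1, 29.2, 9.05 and 210 CPM (69, 63, 34 and 3438 UMIs). HLU replicate 2 was far above the other libraries, and HLU replicate 1 was the lowest. Monocytes held 52.3%, 32.5%, 46.6% and 61.1% of the Il1a UMIs of their library. In mature neutrophils Il1a reached 2.95, 6.48, 0.917 and 12.8 CPM, from 12, 36, 8 and 108 UMIs. Monocytes exceeded mature neutrophils by a log2 fold change of 2.55 ± 0.38 (edgeR's quasi-likelihood test, adjusted p = 4.18e-06), the only 1 of 7 members tested that did, while 5 were lower, among 67.5% of genes called, 33.7% higher and 33.8% lower.

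Il1b did not pass that test (0.12 ± 0.41, adjusted p = 0.815). Scaling by the library total in place of TMM factors raised the median log2 fold change of all genes between monocytes and mature neutrophils from 0.02 to 0.81, and the share of higher genes among those called from 49.96% to 77.72%. Under it Il1b was 0.89 higher in monocytes (adjusted p = 0.0796; 0.0796 to 0.996 over all alternatives). The members lower in monocytes kept that direction under both scalings: Il1r2 fell by 5.39 ± 0.45, Il1f9 by 4.04 ± 0.36, Il1rap by 2.92 ± 0.29, Il1rn by 2.86 ± 0.26 and Il1rl1 by 2.44 ± 0.68. The call of Il1rl1 was lost without Ctrl replicate 1 and under a stricter gate.

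The share of monocytes with an Il1a UMI was 13.3%, 10.3%, 7.36% and 48.3%, and after thinning to 5000 UMIs, which kept 106, 174, 276 and 937 monocytes, it was 11.3%, 8.62%, 2.54% and 39.7%. In B cells only 0, 0, 1 and 7 Il1a UMIs were found. Among monocytes thinned in this way, Il1a was found in 18.8%, 13.1%, 4.22% and 42.7% of those with Il1b and in 0%, 1.49%, 0% and 6.49% of those without it. In HLU replicate 2, 100 monocytes held at least 10 Il1a UMIs and 57.9% of the Il1a UMIs of the group, against 1, 1 and 0 such monocytes in the other libraries. These 100 monocytes held 10685 CPM of Il1b against 1626 CPM in monocytes without Il1a, 12005 against 1840 CPM of the neutrophil chemokine Cxcl2, 2230 against 168 CPM of the related chemokine Cxcl3, and 356 against 111 CPM of Il1rn. They had a median of 14705.5 UMIs against 12446 in those without Il1a.

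Il1rn, the antagonist, was highest in mature neutrophils among the ranked groups, and lower in monocytes, where mean Il1b was highest. Its level was 235, 264, 203 and 545 CPM in mature neutrophils, 172, 164, 149 and 181 CPM in dendritic cells and 53.3, 67.7, 28.0 and 183 CPM in monocytes. Mature neutrophils were above dendritic cells in all 4 libraries and HLU replicate 2 was highest in each group. Mature neutrophils held 54.2%, 55.1%, 54.9% and 30.4% of the Il1rn UMIs of their library. The share of mature neutrophils with Il1rn was 35.4%, 38.0%, 33.7% and 74.4%, or 21.5%, 20.9%, 18.1% and 40.1% at 1000 UMIs, against 0%, 1.35%, 1.29% and 0.281% of B cells at that depth. In the same thinned neutrophils, Il1rn was found in 30.1%, 28.1%, 24.4% and 44.4% of barcodes with Il1b and in 15.8%, 16.6%, 14.6% and 27.2% of those without it. Il1f9 went the same way, at 33.7%, 35.4%, 51.2% and 41.9% against 28.3%, 23.2%, 43.9% and 27.8%. Il1r2 and Il1rap were also found more often with Il1b in each library.

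Mature neutrophils with Ccrl2, an atypical chemokine receptor, made up 24.7%, 35.2%, 20.2% and 18.9% of the group. Il1rn was 341 against 206, 399 against 199, 307 against 179 and 714 against 503 CPM with and without Ccrl2, and Il1b was 1637 against 601, 1087 against 648, 1096 against 577 and 3871 against 2984 CPM. Both were higher with Ccrl2 in each library, as was Il1f9, at 672 against 443, 524 against 441, 1037 against 778 and 724 against 467 CPM. Il1r2 was lower with Ccrl2 except in HLU replicate 1, at 201 against 231, 301 against 360, 285 against 264 and 124 against 165 CPM. None of these differences was tested.

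Against mature neutrophils 0 members were higher in dendritic cells and 4 lower (Il1rn, Il1f9, Il1r2 and Il1rap), among 52.2% of genes called, 22.8% higher and 29.4% lower, and Il1b did not pass the test (-0.43 ± 0.49, adjusted p = 0.48, and 0.58 on scaling by the library total). Dendritic cells were also compared with monocytes. In a fit with at least 10 barcodes per library, added after the data had been seen, 2 members were higher in dendritic cells and 2 lower, among 25.3% of all genes called. Il1r2 was higher by 2.19 ± 0.56 (edgeR's quasi-likelihood test, adjusted p = 0.00269) and Il1rn by 1.0 ± 0.38 (adjusted p = 0.0493). Il1a was lower by a log2 fold change of -5.43 ± 1.35, from 0, 0, 0 and 4 UMIs in dendritic cells, and Il1f9 by -3.21 ± 0.79. Il1b did not pass the test (-0.55 ± 0.49). The call of Il1rn was lost in 5 alternatives. Its level was higher in dendritic cells than in monocytes in 3 libraries, but in HLU replicate 2 it was 181 against 183 CPM.

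Il1f9, the IL-36 agonist, was found mainly in neutrophils of all stages. It stood at 491, 468, 826 and 518 CPM in mature neutrophils, 107, 54.0, 179 and 167 CPM in intermediate cells, 104.5, 46.4, 127.8 and 63.8 CPM in immature cells and 75.1, 36.1, 120 and 31.6 CPM in progenitors. Here HLU replicate 1, not HLU replicate 2, was highest in mature cells, and the remaining libraries lay between 468 and 518 CPM. Monocytes held 36.6 to 80.7 CPM, and dendritic cells 0, 3, 2 and 2 UMIs. The share of mature neutrophils with an Il1f9 UMI was 46.7%, 47.0%, 66.7% and 77.7%, or 30.4%, 27.8%, 46.5% and 38.4% at 1000 UMIs, against 0.833%, 0.448%, 2.21% and 0.843% of B cells.

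Il1r2, the decoy, was found in neutrophils from the immature stage on, and at 11.1 to 55.8 CPM in progenitors. Its level was 225, 341, 268 and 157 CPM in mature, 206, 205, 159 and 106 CPM in intermediate, and 89.3, 124, 77.4 and 73.5 CPM in immature neutrophils. HLU replicate 2 was lowest in each of these groups, the reverse of its place for Il1b and Il1rn, and the Ctrl and HLU values of mature cells overlapped. In intermediate and immature cells, as in progenitors and monocytes, both HLU libraries lay below both Ctrl libraries. These groups come from the same 4 libraries, and the share of all genes ordered in this way is not given. HLU against Ctrl was -0.53 ± 0.31 in intermediate (edgeR's quasi-likelihood test, adjusted p = 0.554) and -0.52 ± 0.28 in immature cells (adjusted p = 0.559), neither called. Monocytes held only 17.8, 16.2, 13.3 and 2.62 CPM. Basophils and mast cells held 238, 359, 90.3 and 39.4 CPM, from 13, 39, 21 and 13 UMIs in 10, 17, 34 and 58 barcodes. Both HLU libraries lay below both Ctrl libraries there, which was not tested at under 20 barcodes in a library. Here, too, the share of all genes ordered so is not given.

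Il1rap, the accessory chain, was found in most groups. It was highest in mature neutrophils, at 29.8, 35.3, 24.4 and 42.3 CPM, followed by basophils and mast cells at 9.21 to 21.5 CPM and intermediate neutrophils at 12.7 to 17.9 CPM. Chondrocytes held 12.2, 11.7, 7.02 and 8.26 CPM, and the neighbouring groups in this order, immature neutrophils, skeletal cells and monocytes (5.18 to 10.5 CPM), overlapped with them.

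Il1r1, the signalling receptor, was found in skeletal cells, at 26.4, 18.8, 32.4 and 38.5 CPM (804, 478, 19 and 44 UMIs). Chondrocytes held 35.8, 14.2, 49.1 and 33.1 CPM and stromal cells 20.7, 23.9, 36.8 and 34.3 CPM. The HLU values, from few barcodes, lay above both Ctrl values in skeletal cells, and the share of all genes ordered so is not given. Monocytes held 3.23 to 7.72 CPM and mature neutrophils 2.46, 1.98, 1.03 and 1.30 CPM, from 9 to 11 UMIs in each library. Basophils and mast cells as well as T and NK cells held 0 Il1r1 UMIs. The share of skeletal cells with an Il1r1 UMI was 17.8%, 16.5%, 32.5% and 26.2%, or 11.8%, 7.78%, 12.1% and 16.7% at 5000 UMIs (2434, 1967, 33 and 78 barcodes), against 3.65%, 0%, 0.766% and 0.556% of mature neutrophils at that depth.

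Receptor and ligand cells were then compared directly. Between skeletal cells and mature neutrophils, 2 of 8 members were higher in skeletal cells and 6 lower, where 75.9% of all genes were called, 39.4% higher and 36.5% lower. Il1r1 was higher by 3.47 ± 0.52 (edgeR's quasi-likelihood test, adjusted p = 8.33e-07) and Il1rl1 by 3.86 ± 0.70 (adjusted p = 7.47e-06). Il1r2 was lower by -6.80 ± 0.52, Il1f9 by -6.22 ± 0.51, Il1rn by -5.60 ± 0.40, Il1b by -5.29 ± 0.59 and Il1rap by -2.53 ± 0.27. Il1a was -2.05 ± 0.78 (adjusted p = 0.0193), a call lost in 5 alternatives. In skeletal cells Il1b was 11.7, 17.9, 18.8 and 398 CPM and Il1rn 3.16, 5.34, 5.11 and 52.4 CPM, and the listed markers of mature neutrophils summed to 138, 195, 484 and 436 CPM and those of monocytes to 98.8, 145, 186 and 406 CPM. The part of these other transcripts in the Il1b values of skeletal cells was not tested. Barcodes scored as putative doublets made up 4.81%, 3.66%, 0% and 14.6% of skeletal cells.

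**Figure D3:**
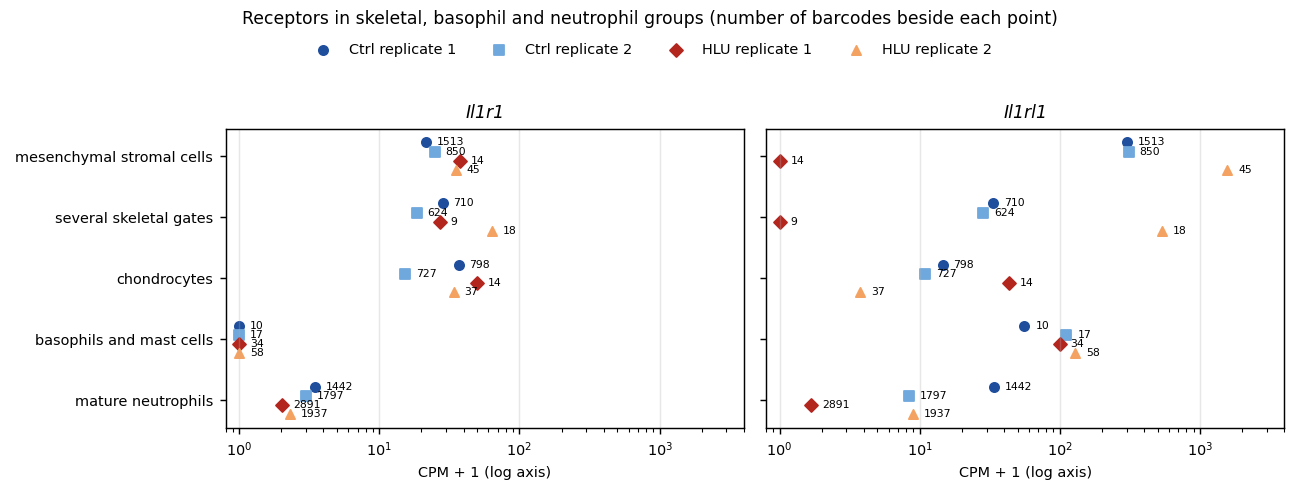
Il1r1 and Il1rl1 in stromal cells, barcodes of several skeletal gates, chondrocytes, basophils and mast cells, and mature neutrophils, as CPM + 1 on a log axis, with 1 marker per library and its number of barcodes beside it. Il1r1 values of stromal cells and chondrocytes overlapped, whereas Il1rl1 was high in stromal cells (299 and 308 CPM in Ctrl) and basophils.

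Il1rl1 was higher in stromal cells than in chondrocytes in 3 of 4 libraries. In mesenchymal stromal cells it reached 299, 308, 0 and 1560 CPM, from 1513, 850, 14 and 45 barcodes. The value of 0 in HLU replicate 1 allows up to 13.8 CPM (3 counts), and in HLU replicate 2, 5 barcodes held 98.2% of the UMIs. The HLU values therefore spanned both sides of the Ctrl values. Barcodes scored as putative doublets made up 4.76%, 3.29%, 0% and 24.4% of stromal cells. Chondrocytes held 13.6, 9.98, 42.1 and 2.75 CPM, so that HLU replicate 1, with 14 stromal barcodes, had the reverse order. In the added fit, stromal cells exceeded chondrocytes in Il1rl1 by 5.51 ± 0.94 (edgeR's quasi-likelihood test, adjusted p = 7.34e-05) and were lower in Il1rap by -1.72 ± 0.34 (adjusted p = 0.000465, lost without either Ctrl library), among 9.68% of genes called. Il1r1 did not pass the test (-0.26 ± 0.52, adjusted p = 0.855).

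Within Ctrl stromal cells Il1rl1 was held mainly by few barcodes. At least 10 UMIs were found in 77 of 1513 and in 44 of 850 barcodes, and these held 93.2% and 93.1% of its UMIs in the group, with up to 282 and 297 UMIs in a barcode. They had a median of 18323 and 18709 UMIs against 7345 and 9402.5 in stromal cells without Il1rl1. Pdpn, which encodes podoplanin, was 485 against 107 and 671 against 131 CPM, the chemokine gene Cxcl5 662 against 65.1 and 274 against 37.2 CPM, and the growth factor gene Fgf7 190 against 38.1 and 194 against 47.6 CPM. Of the 7 stromal markers, 5 were higher in barcodes rich in Il1rl1 in both Ctrl libraries (Cxcl12, Pdgfra, Lum, Apod and Col3a1) and 2 lower (Dcn and Lepr). Cxcl12 was 656 against 203 and 379 against 113 CPM and Pdgfra 508 against 198 and 522 against 215 CPM, while Dcn was 23799 against 30701 and 23002 against 30172 CPM and Lepr 2.12 against 17.1 and 11.1 against 16.9 CPM. Il1r1 was 24.0 against 19.0 and 53.2 against 20 CPM.

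Basophils and mast cells were the other Il1rl1 group, at 55.0, 110.5, 98.9 and 127 CPM, from 3, 12, 23 and 42 UMIs. The Ctrl and HLU values overlapped. In HLU replicate 1, where stromal cells were nearly absent, this group held 21.3% of all Il1rl1 UMIs of the library. Against mature neutrophils, where 48.8% of genes were called and 19.6% were higher, 1 member was higher: Il1rl1, by 2.70 ± 0.83 (edgeR's quasi-likelihood test, adjusted p = 0.00679), a call lost without HLU replicate 1 (1.72). The other 6 members called were lower, among them Il1r2 by -1.96 ± 0.44, a call lost on scaling by the library total (-0.79). By CPM, Il1r2 of basophils and mast cells lay above mature neutrophils in both Ctrl libraries and below them in both HLU libraries. The means were 299 against 283 CPM in Ctrl and 64.8 against 212 CPM in HLU.

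The other comparisons between gates also moved with the scaling. With library totals in place of TMM factors the median log2 fold change of all genes against mature neutrophils rose to 0.71 in skeletal cells, 0.81 in stromal cells, 0.85 in dendritic cells and 0.83 in basophils and mast cells (0.08, 0.13, -0.15 and -0.31 with TMM). The share of higher genes among those called went from 51.9% to 67.7% in skeletal cells, from 53.2% to 69.9% in stromal cells, from 43.7% to 77.1% in dendritic cells and from 40.2% to 80.8% in basophils and mast cells. It went from 43.0% to 58.0% for dendritic cells against monocytes, from 53.0% to 38.4% for intermediate against immature neutrophils and from 44.8% to 59.8% for stromal cells against chondrocytes. In these comparisons no member called under TMM changed sign with library totals, but 6 calls were lost. Against mature neutrophils these were Il1rn in dendritic cells (log2 fold change -0.84, adjusted p = 0.0699), Il1a in skeletal cells (-1.34, adjusted p = 0.162), and Il1a and Il1r2 in basophils and mast cells (adjusted p = 0.103 and 0.117). Between intermediate and immature neutrophils they were Il1b (1.41, adjusted p = 0.0523) and Il1r2 (0.84, adjusted p = 0.0836).

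Hindlimb unloading was then compared with Ctrl within each group. Counts of members and list genes at an unadjusted p under 0.05 are given without the share of all genes at that threshold. Whether they exceed that share is therefore not shown. In mature neutrophils 0 of 8 members were called by edgeR's quasi-likelihood test (0 at an unadjusted p under 0.05, and 0 by DESeq2), against 1.47% of all genes, each of them lower, and 3.37% by DESeq2. Il1b had a log2 fold change of 1.68 ± 0.88 (adjusted p = 0.561) and Il1rn of 0.96 ± 0.66 (adjusted p = 0.639). Both turned with the libraries: without HLU replicate 2 Il1b stood at -0.30 and Il1rn at -0.34, and without HLU replicate 1 both were called, at 2.49 and 1.65, when 3138 of 9964 genes were called. With no filter on low counts Il1b was called at 1.72, when 941 of 16846 genes were. Over all alternatives the adjusted p of Il1b ran from 9.87e-06 to 1 and that of Il1rn from 0.000312 to 1. Il1f9 was 0.66 ± 0.36, Il1r2 -0.26 ± 0.37, Il1a 0.96 ± 1.20, Il1rap 0.35 ± 0.50, Il1r1 -0.68 ± 0.57 and Il1rl1 -1.77 ± 1.21, with adjusted p of 0.574 to 0.824. Without HLU replicate 2 these stood at 0.74, -0.13, -2.43, -0.46, -1.12 and -4.84, of which Il1a and Il1rl1 were called, when 536 of 10025 genes were. The genes induced by tissue dissociation, which also mark handling, summed to 5050, 4871, 3685 and 1747 CPM in these cells, lowest where Il1b was highest, and their part in the values of Il1b was not tested.

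In monocytes 0 of 8 members were called (0 at an unadjusted p under 0.05, and 0 by DESeq2), against 0.0516% of all genes and 1.53% by DESeq2. Il1a stood at 1.45 ± 1.21, Il1rn at 0.80 ± 0.80, Il1b at 0.59 ± 0.54 and Il1r2 at -1.25 ± 0.74, and without HLU replicate 2 Il1a (-2.20), Il1rn (-1.21) and Il1b (-0.40) changed sign and Il1r2 was -0.43. Of these, Il1a and Il1rn were then called, when 335 of 9627 genes were. The difference of the Il1b response between monocytes and mature neutrophils, tested as an interaction, was -0.54 ± 0.40 (adjusted p = 0.798), and 0 of 11000 genes were called in it (679 at an unadjusted p under 0.05).

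**Figure D4:**
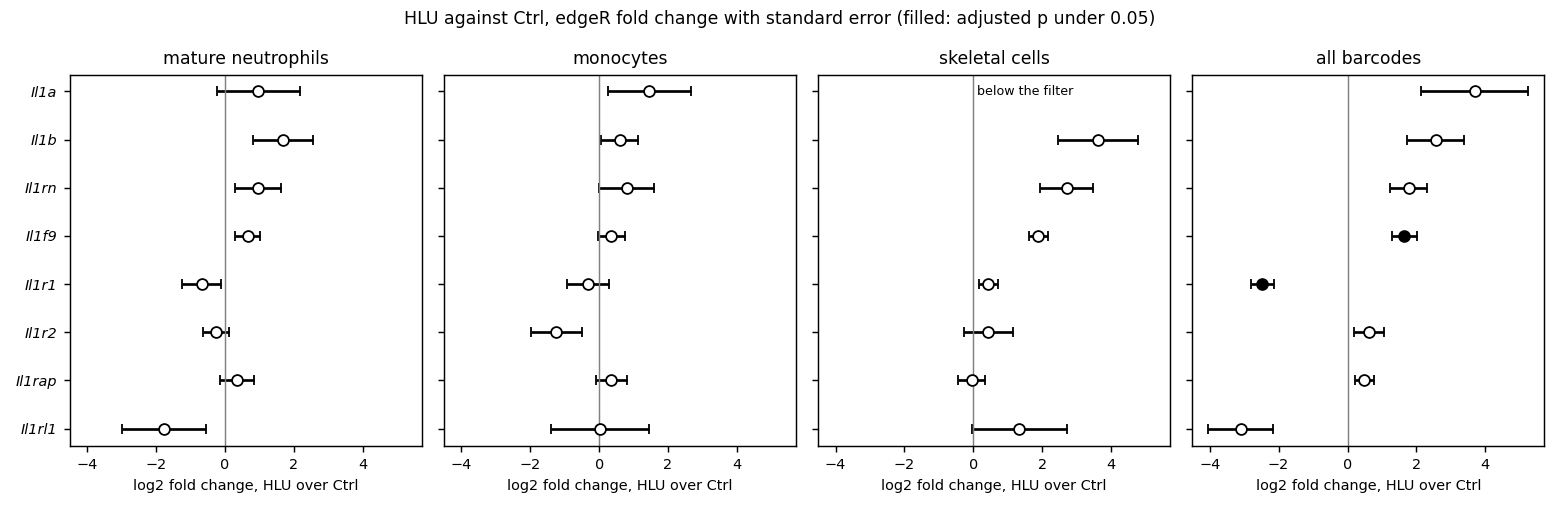
Log2 fold change of HLU against Ctrl with its SE (edgeR, 2 libraries per group) for each member in mature neutrophils, monocytes, skeletal cells (Il1a not tested there) and all barcodes; filled symbols have an adjusted p under 0.05. Only Il1f9 and Il1r1 in all barcodes are filled, and the widest error bars are those of Il1a and Il1rl1.

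In skeletal cells 0 of 7 members tested were called (3 at an unadjusted p under 0.05, and 1 by DESeq2), against 0% of 13040 genes and 1.9% by DESeq2. Il1b was 3.63 ± 1.17 (0.06 without HLU replicate 2), Il1rn 2.71 ± 0.77 (-0.0087), Il1f9 1.88 ± 0.27 (1.82), Il1r1 0.44 ± 0.28 (0.25) and Il1rl1 1.33 ± 1.38 (-4.03), each with an adjusted p of 0.2003 or more. Without HLU replicate 2 Il1rl1 was called, when 396 of 14132 genes were. Il1f9 was the member called by DESeq2. In the same barcodes the markers of mature neutrophils, in which Il1f9 was highest, summed to 138 and 195 CPM in Ctrl and 484 and 436 CPM in HLU, and their part in the Il1f9 values was not tested.

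The remaining neutrophil groups gave 1 call. In intermediate neutrophils 1 of 7 members passed, against 0.699% of all genes and 2.08% by DESeq2: Il1rl1, from 17 and 39 UMIs in Ctrl to 3 and 4 in HLU, fell by 3.95 ± 0.62 (edgeR's quasi-likelihood test, adjusted p = 0.0461, 9.07e-07 to 0.383 over the alternatives, lost in 6 of them, including without either Ctrl library, and -4.53 without HLU replicate 2). The listed markers of mesenchymal stromal cells fell with it, from 697 and 683 to 26.8 and 6.25 CPM in the same barcodes, and from 1435 and 1293 to 5.96 and 17.4 CPM in mature neutrophils. Of these 7 markers 1, 0, 2 and 3 were at 0 in intermediate cells. The part of stromal RNA in the Il1rl1 counts of neutrophils was not tested. In intermediate cells 3 of 7 members had an unadjusted p under 0.05 by the same test. Beside Il1rl1 these were Il1f9 (1.25 ± 0.41, adjusted p = 0.371) and Il1b (2.07 ± 0.83, adjusted p = 0.433). For Il1f9 both HLU libraries lay above both Ctrl libraries, without the share of all genes ordered so. In immature neutrophils 0 of 6 members passed (2 at an unadjusted p under 0.05, and 1 by DESeq2), against 0.869% of genes (0.0105% higher) and 2.21% by DESeq2, with Il1rl1 at -5.92 ± 1.04 (adjusted p = 0.0614, or -5.27 and called without HLU replicate 2, when 436 of 9801 genes were). Il1rn, the other member of immature neutrophils at an unadjusted p under 0.05, stood at 0.96 ± 0.34 (adjusted p = 0.441). Both HLU libraries lay above both Ctrl libraries for it, again without the share of all genes ordered so. In progenitors 0 of 4 passed (2 at an unadjusted p under 0.05, and 0 by DESeq2), against 0.121% of genes and 0.256% by DESeq2. There Il1b was 17.5, 6.01, 17.7 and 304 CPM, high in HLU replicate 2 alone (3.46 ± 1.17, or 0.58 without that library), and Il1r2 was 36.3, 55.8, 22.7 and 11.1 CPM (-1.64 ± 0.50, or -1.12). In B cells 0 of 2 members tested passed, against 1.01% of genes (0.0124% higher) and 1.28% by DESeq2, and in T and NK cells 0 of 1, against 0.632% of genes, each of them lower, and 0.708% by DESeq2 (in both groups 0 at an unadjusted p under 0.05, and 0 by DESeq2).

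Summed over all barcodes, 2 of 8 members were called, against 23.2% of all genes, 6.06% higher and 17.1% lower. In such sums, fewer cells of a type and less RNA per cell cannot be told apart. Where HLU and Ctrl libraries are said not to overlap, the share of all genes without overlap is not given. Il1f9 was 68.5, 75.5, 287 and 147 CPM, both HLU libraries above both Ctrl libraries, and rose by 1.65 ± 0.36 (edgeR's quasi-likelihood test, adjusted p = 0.0316, 0.000367 to 0.305 over the alternatives, lost without either Ctrl library, and 2.00 without HLU replicate 2). Il1r1 was 18.4, 12.6, 2.49 and 2.77 CPM, again with no overlap, and fell by 2.48 ± 0.34 (adjusted p = 0.0092, 7.37e-08 to 0.089, lost without Ctrl replicate 1, and -2.64 without HLU replicate 2). Skeletal cells held 77.5% and 64.3% of the Il1r1 UMIs in Ctrl but 16.8% and 18.1% in HLU, where monocytes held 25.7% and 21.8%, and the listed markers of mesenchymal stromal cells fell from 18859 and 15551 to 178 and 230 CPM over all barcodes. Barcodes of no gate also held Il1r1, at a mean of 10.2 CPM over the HLU libraries against 5.48 CPM in monocytes. Their share of its UMIs is not given. Within skeletal cells the HLU values of Il1r1 did not lie below those of Ctrl.

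The other members did not pass over all barcodes. Il1b was 151, 200.5, 315 and 1585 CPM (2.55 ± 0.82, adjusted p = 0.0816, or 0.84 without HLU replicate 2), Il1rn 31.3, 45.2, 71.2 and 172 CPM (1.78 ± 0.53, adjusted p = 0.0687, or 0.90) and Il1rl1 100.3, 81.3, 2.38 and 16.9 CPM (-3.10 ± 0.95, adjusted p = 0.0720, or -5.25). For these 3 genes the HLU and Ctrl libraries did not overlap, a description without the share of all genes for which this holds. Il1a was 2.35, 3.30, 1.61 and 64.3 CPM (3.69 ± 1.56, and -0.81 without HLU replicate 2), Il1r2 39.6, 72.7, 111 and 55.8 CPM (0.62 ± 0.44, and 0.98) and Il1rap 9.75, 10.9, 12.6 and 14.8 CPM (0.49 ± 0.27, and 0.28). DESeq2 called 5 members, Il1b among them (adjusted p = 0.0014), and 30.4% of all genes. With the replicate number as a block, which the labels tie to no batch or pairing, Il1b, Il1rn and Il1rl1 were called as well, among 22.3% of all genes. Without HLU replicate 2 these 3 were called too, when 6043 of 15996 genes were.

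Antagonist and agonist were also set against each other as log2 ratios of CPM. The ratio of Il1rn to Il1b in mature neutrophils averaged -1.69 ± 0.16 over the Ctrl libraries and -2.13 ± 0.57 over the HLU libraries (SD, n = 2 each), a difference of -0.44 (two-sided exact permutation test, p = 0.667). The ratio of the decoy Il1r2 to Il1r1 over all barcodes averaged 1.81 ± 1.004 and 4.90 ± 0.81, a difference of 3.09 (p = 0.3333 by the same exact test, the smallest that 2 against 2 libraries allow). With 2 against 2 libraries none of the 18 ratios computed could pass this test, whatever its value.

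Other genes of the pathway were followed through listed groups. Between mature and immature neutrophils, 13 of 16 genes of IL-1 receptor signalling were higher and 0 lower, with a median log2 fold change of 0.88 against 0.15 over all genes tested, of which 31.8% were higher and 26.1% lower. They included Ikbkg (2.94), the regulatory subunit of the IκB kinase, Irak2 (2.34), a receptor-associated kinase, and the adaptor Tab2 (1.64). Of the inflammasome genes 3 of 8 tested were higher, among them the sensors Nlrp3 (4.14) and Aim2 (2.68), and 1 lower, the adaptor Pycard (-1.24), a share near that of all genes. Of the response and feedback genes 8 of 11 were higher and 1 lower, led by Cxcl2 (5.15), Ptgs2 (3.25) and Csf3 (2.71). Of the genes induced by tissue dissociation 8 of 13 were also higher, led by Dusp1 (3.67), Atf3 (3.13) and Zfp36 (2.48). Il18 (3.999) and Il18bp (1.60), which encode a related cytokine and its binding protein, were both higher, while of the other receptors Il18rap was higher (1.30) and Sigirr lower (-1.68).

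Between skeletal cells and mature neutrophils, 7 of 8 inflammasome genes were lower and 0 higher, with Aim2 at -5.47, Nlrp3 at -5.46 and Nlrc4 at -3.81, and so were 12 of 16 signalling genes, with Irak4 at -2.61, Irak3 at -2.51 and Ikbkg at -2.30. The median log2 fold changes were -3.60 and -0.96 against 0.08 over all genes, of which 39.4% were higher and 36.5% lower. Of 11 response genes, 3 were higher and 5 lower, with the chemokines Cxcl1 (4.57) and Ccl2 (4.36) among the former and Cxcl2 (-2.16) among the latter, shares near those of all genes. In monocytes against mature neutrophils, 1 of 16 signalling genes was higher and 9 lower (median -0.71), among 33.7% of all genes higher and 33.8% lower (median 0.02). Of 11 response genes 5 were higher and 4 lower (median -0.53), shares near those of all genes, led by Lcn2 (-2.69), Il6 (2.66) and Csf3 (2.48). In basophils and mast cells, Sigirr (3.94) and the IL-18 receptor chain Il18r1 (3.08) were higher than in mature neutrophils. The list counts and medians were made with TMM factors only. Library totals raised the median of all genes in the comparisons of this paragraph, and the lists were not counted under them.

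In HLU against Ctrl, 0 genes of these 6 lists were called by edgeR in mature neutrophils (0 to 2 per list at an unadjusted p under 0.05, and 1 dissociation gene by DESeq2) or in monocytes (0 to 3 per list, and 1 response gene by DESeq2). Within groups, where 0% to 1.47% of all genes were called, the lists gave 2 edgeR calls, both of response genes that encode chemokines. In B cells it was Ccl2 (-5.14, adjusted p = 0.0409), 1 of 9 response genes tested, against 1.01% of all genes. In T and NK cells it was Cxcl1 (-2.80, adjusted p = 0.0326), 1 of 6 tested, against 0.632%. With so few calls over all lists and groups, nothing more is read from them. Of 13 dissociation genes, 8 in immature and 6 in intermediate neutrophils had an unadjusted p under 0.05. DESeq2 called 4 and 2 of them, against 2.21% and 2.08% of all genes. Their medians were -1.21 and -1.45, against 0.03 and 0.04 over all genes, and their part in the member values was not tested. In skeletal cells 3 of 3 other receptors tested had an unadjusted p under 0.05, and DESeq2 called 0, against 1.9% of all genes. These unadjusted counts, too, have no share of all genes beside them. In all barcodes 6 of 8 inflammasome genes were higher and 0 lower, including Nlrc4 (2.78), Nlrp3 (1.84) and Pycard (1.80), with a median of 1.47 against 0.04 over all genes, of which 6.06% were higher and 17.1% lower. The alarmin gene Il33, whose product binds Il1rl1, fell by 3.94 and Il1f6, an IL-36 agonist, rose by 3.40. Of 16 signalling genes 1 rose, the kinase Irak4 (1.51), and of 11 response genes 0 were called by edgeR (0 at an unadjusted p under 0.05) and 1 by DESeq2. Of 13 genes induced by tissue dissociation 3 fell, Fosb (-2.88), Atf3 (-2.37) and Nr4a1 (-1.11), and 0 rose. As for the members, changes over all barcodes are not separated from the change in the shares of cell types.

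The genes most like each member were taken from Pearson's r of log2(CPM + 1) over 44 sums, 11 groups in 4 libraries, which share libraries, depth and free RNA, so r is a description. Il1b was most like Slc15a3 (0.87), Clec4a1 (0.84) and Ifngr2 (0.82), and Il1a like Csf3 (0.87), Msr1 (0.85) and U90926 (0.82). Il1rn was most like Mpeg1 (0.89), Pira2 (0.86) and Ptafr (0.84), Il1f9 like Csf3r (0.89), Dgat2 (0.85) and Trem1 (0.83), and Il1r2 like Mxd1 (0.85), Ccr1 (0.83) and R3hdm4 (0.83). Of these, Mpeg1, Csf3r and Mxd1 are gate markers. Il1r1 was most like Dock1 (0.93), Pros1 (0.93) and Zfyve9 (0.92), Il1rl1 like Atp8b1 (0.73), Lnx1 (0.70) and Ptgfr (0.70), and Il1rap like Rffl (0.77), Hacd4 (0.75) and Prrg2 (0.72). Among members the highest r was between Il1b and Il1rn (0.76), and Il1r1 and Il1r2 had -0.48.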

How the data were processed

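The single-cell libraries of 2 Ctrl and 2 HLU mice were analysed. The authors deposited raw UMI counts per gene and barcode without normalization. The submitters' processing notes name Cell Ranger 6.0.0, Seurat 4.1.0 and the genome build mm10. The members and lists were chosen with earlier results of these data known, and the thresholds of the gates after the counts had been seen.

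A barcode passed a gate with at least 2 marker genes and 8 to 128 marker UMIs per 10000, by gate. Counts were summed per library and group, without normalization of single barcodes, and tested with edgeR 4.0.16 under R 4.3.3 (TMM, filterByExpr, quasi-likelihood test, Benjamini-Hochberg adjusted p under 0.05). Gates were compared with the library as a block, in fits that held further groups beside those compared. The error of these tests therefore also rests on the sums of the other groups. Groups needed 20 barcodes in every library, or 10 in the added fits, which hold the comparisons of dendritic cells, basophils, stromal cells, skeletal cells and intermediate neutrophils. DESeq2 1.42.0, other filters, scalings, gates and barcodes, the replicate number as a block and each library left out were alternatives. Putative doublets were kept in the main sums and removed in 1 alternative, which took the barcodes with the highest Scrublet scores (0.8% per 1000 barcodes). Barcodes with haemoglobin over 0.2% of UMIs were removed in another. Counting error only is covered by shares and floors (3 counts). The edgeR steps were tested on simulated data with 200 changed genes. The SE of an edgeR fold change was derived as its absolute value divided by the square root of the F statistic of the test.

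All 8 members are named, though some comparisons name only a part of them or none. Up to 3 called genes per list with the largest change are also named, as are the 3 genes most like each member. Genes richest in barcodes with many UMIs of a member were chosen after their values were seen. Other software was Python 3.11.15 with numpy 2.4.6, pandas 2.3.3, scipy 1.17.1, scanpy 1.11.5 and matplotlib 3.10.9. Columns of other samples numbered 0.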

Additional observations from a re-analysis of the deposited data

Results flagged for a closer look

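Barcodes that passed no gate, or gates of several types, enter no comparison between groups, and members whose level there was at least 2 times that of the higher Ctrl library are given as values. Among barcodes of no gate in HLU replicate 2, Il1b was 3570 CPM (higher Ctrl library 197 CPM), Il1rn 263 CPM (46.0 CPM) and Il1a 196 CPM (8.95 CPM), from 22360, 1648 and 1226 UMIs. In HLU replicate 1 Il1f9 was 188 CPM among barcodes of no gate (59.1 CPM) and 289 CPM among those of several gates (138 CPM). Among barcodes of several gates in HLU replicate 2, Il1rn was 116 CPM (49.4 CPM) and Il1a 15.8 CPM (4.80 CPM). Each is a value of 1 library, and no difference was tested.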

How the results depend on the processing

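With 2 libraries per group the HLU results are limited by HLU replicate 2 and by few skeletal barcodes in HLU, sparse members (Il1a, Il1r1, Il1rl1) rest on few UMIs outside their main groups, free RNA was not removed, and shares differ with depth. Of 702 alternative values of members between gates, 648 kept their direction and side of the threshold, 32 lost the call, 4 gained it and 18 changed sign, each of these called neither before nor after. Of 569 alternative values of members between HLU and Ctrl, 455 kept both, 64 gained a call, 9 lost it and 41 changed sign, of which 7 were called under the alternative and 34 in neither fit. A library had been left out in 29 of these 41 and in 9 of the 18.

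For the members whose sign turned when a library was left out, the log2 fold changes of HLU against Ctrl without 1 library ran as follows. In the neutrophil groups they ran from -1.24 to 1.04 for Il1f9 and -0.38 to 0.79 for Il1rap in neutrophil progenitors, from -1.72 to 2.48 for Il1b and -0.18 to 0.98 for Il1f9 in immature neutrophils, from -0.0932 to 1.79 for Il1a, -0.14 to 2.90 for Il1b and -0.51 to 0.53 for Il1rap in intermediate neutrophils, from -2.43 to 1.91 for Il1a, -0.30 to 2.49 for Il1b, -0.34 to 1.65 for Il1rn, -0.54 to 0.13 for Il1r2 and -0.46 to 0.89 for Il1rap in mature neutrophils. They ran from -2.20 to 2.41 for Il1a, -0.40 to 1.17 for Il1b, -1.21 to 1.58 for Il1rn, -0.0699 to 0.95 for Il1f9, -0.99 to 0.18 for Il1r1 and -0.63 to 1.76 for Il1rl1 in monocytes. They ran from -1.30 to 3.14 for Il1b and -0.24 to 3.16 for Il1f9 in B cells, from -0.00867 to 3.39 for Il1rn, -0.00864 to 0.91 for Il1r2, -0.51 to 0.15 for Il1rap and -4.03 to 2.27 for Il1rl1 in skeletal cells and from -0.81 to 4.73 for Il1a over all barcodes. Between gates they ran from -0.0549 to 0.35 for Il1b in monocytes against mature neutrophils, from -0.19 to 0.39 for Il1r1 in intermediate neutrophils against immature neutrophils, from -6.32 to 0.22 for Il1rl1 in dendritic cells against monocytes and from -0.38 to 2.80 for Il1a, -0.0711 to 1.25 for Il1b, -0.39 to 0.0716 for Il1f9, -0.51 to 0.13 for Il1r1 and -0.88 to 0.23 for Il1r2 in mesenchymal stromal cells against chondrocytes. These fits rest on fewer samples, and a lone library is assumed to vary like the other group. The stricter gate turned Il1f9 in progenitors (-0.11), Il1a in intermediate neutrophils (-0.14), Il1b (-0.31), Il1r2 (0.0748) and Il1rl1 (-0.95) in monocytes and Il1r2 (-0.24) and Il1rl1 (-0.64) in skeletal cells for HLU against Ctrl. Between gates it turned Il1r1 (-0.65) and Il1rl1 (-0.0121) from immature to intermediate neutrophils and Il1rn (0.23), Il1f9 (0.14) and Il1r2 (0.37) in stromal cells against chondrocytes. There Il1a (-2.26) and Il1b (-0.69) turned without putative doublets. Scaling by the library total turned Il1rap of HLU against Ctrl in intermediate neutrophils (-0.0783) and skeletal cells (0.18) and Il1b in dendritic cells against mature neutrophils (0.58), and DESeq2 turned the latter (0.0294) and Il1rl1 of HLU against Ctrl in monocytes (-0.0229).

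The number of all genes called moved as follows, where the main counts were 9 in progenitors, 83 in immature, 66 in intermediate and 145 in mature neutrophils, 5 in monocytes, 81 in B cells, 25 in T and NK cells and 0 in skeletal cells. DESeq2 called 19, 211, 196 and 332 genes in the neutrophil groups, 148 in monocytes and 248 in skeletal cells. No filter on low counts gave 174, 736, 751 and 941, then 483 in monocytes, 284 in B cells, 147 in T and NK cells and 1047 in skeletal cells. At least 10 UMIs in every library gave 0, 0, 5 and 27, and 0 in monocytes, B cells and T and NK cells. Without putative doublets the counts were 3, 20, 11 and 73, with 24 in monocytes and 44 in B cells. The stricter gate gave 224 in immature and 256 in mature neutrophils, 9 in monocytes, 38 in B cells and 10 in T and NK cells. Scaling by the library total gave 0 in progenitors, 31 in intermediate neutrophils and 2 in monocytes. The cause of these shifts was not tested.

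With each library left out in turn the counts ran from 11 to 1648 in progenitors, 71 to 3052 in immature, 19 to 2653 in intermediate and 28 to 3138 in mature neutrophils, 30 to 3310 in monocytes, 39 to 1222 in B cells, 23 to 379 in T and NK cells, 24 to 1422 in skeletal cells and 848 to 7726 over all barcodes (main count 3568). Between gates they ran from 1727 to 3755 for intermediate against immature neutrophils (3253), 1615 to 3894 for mature against intermediate neutrophils (3067) and 318 to 2022 for stromal cells against chondrocytes (1082).

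Ctrl and HLU libraries share only replicate numbers in the labels, which name no pairing. Deviations of equally numbered libraries correlated at -0.09 over all barcodes, 0.07 in mature neutrophils and -0.02 in monocytes. With 2 libraries per group this correlation cannot decide whether libraries were paired. With the replicate number as a block, 148, 129, 397 and 281 genes were called in the neutrophil groups, 94 in monocytes, 60 in T and NK cells and 2 in skeletal cells. Over all barcodes the block also called Il1b (2.09), Il1rn (1.63) and Il1rl1 (-3.73), when 3428 of 15385 genes (22.3%) were called. It turned Il1rl1 in monocytes (-0.28) and in skeletal cells (-0.33), neither called.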
